A study of Mus musculus with 8 samples.

Results

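The 10 genes described here encode the enzymes that make serine from a glycolytic intermediate and those that carry its carbon through the folate cycle. They are Phgdh, Psat1 and Psph of serine synthesis, Shmt1 and Shmt2, the folate enzymes Mthfd1, Mthfd1l and Mthfd2, and the formyltetrahydrofolate dehydrogenases Aldh1l1 and Aldh1l2. They were chosen by name, and each has 1 row among the 24060 gene rows of the deposited count table. RNA was measured in bulk cerebellum of 8 mice. All 8 carried the CalExflox allele, from which a calcium-exporting plasma membrane pump is expressed once Cre has acted. In 4 of them, called bigenic, the Aldh1l1-Cre/ERT2 allele was also present, which gives tamoxifen-activated Cre in astrocytes. The other 4, without Cre, were the controls. Every mouse received 1 injection of tamoxifen at 75 mg/kg, and the tissue was taken after 5 days; the labels give no age. Each library came from a mouse of its own. The comparison asks how the cerebellar transcriptome differs once the pump has been switched on in astrocytes. Only the bigenic mice carry Cre, so effects of the pump, of Cre and of the inserted Aldh1l1 sequence cannot be told apart.

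Serine is made in 3 steps: Phgdh oxidises 3-phosphoglycerate, Psat1 adds the amino group and Psph removes the phosphate. In the brain this pathway runs largely in astrocytes and other glia, which supply serine to neurons. Serine hydroxymethyltransferase moves a carbon of serine onto tetrahydrofolate and releases glycine, with Shmt1 in the cytosol and Shmt2 in mitochondria. In mitochondria Mthfd2 and Mthfd1l then oxidise that carbon to formate, which leaves for the cytosol. There the trifunctional enzyme Mthfd1 takes formate back onto folate for purine and thymidylate synthesis. Aldh1l1 in the cytosol and Aldh1l2 in mitochondria end the route by oxidising 10-formyltetrahydrofolate to carbon dioxide. Aldh1l1 is also a widely used marker of astrocytes, and its regulatory sequence drives Cre in the bigenic mice.

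The sequence just before the transcription start is shown for the 4 genes that were higher in bigenic tissue and for Mthfd1, which was lower. No promoter window was available for Aldh1l2, the other lower gene, so the directions are not equally represented. For Psat1 only 1 of 2 windows is printed, and the window not printed holds GC box matches at -11 and -2 bases from its start. The printed runs of Aldh1l1, Psat1 and Psph lie inside the genes as annotated in GENCODE, whose positions are given below. Each run holds the 120 bases before the start in RefSeq (GRCm38.p6, 5′ to 3′ on the gene's strand). Capitals mark matches to CCAAT, to the GC box GGGCGG and to TGACG, the core of the cAMP response element, each on either strand, and no matches overlap within a printed run.
Aldh1l1, chr6:90550673-90550792, plus strand: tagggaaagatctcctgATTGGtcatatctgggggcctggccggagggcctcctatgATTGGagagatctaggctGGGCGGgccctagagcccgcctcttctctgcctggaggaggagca
Mthfd1l, chr10:3972955-3973074, plus strand: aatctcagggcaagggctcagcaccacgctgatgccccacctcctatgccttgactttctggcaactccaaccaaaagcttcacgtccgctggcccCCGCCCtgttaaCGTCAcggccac
Psph, chr5:129787254-129787373, minus strand: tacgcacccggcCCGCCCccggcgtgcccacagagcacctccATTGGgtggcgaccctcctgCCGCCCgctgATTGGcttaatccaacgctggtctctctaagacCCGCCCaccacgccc
Psat1, chr19:15925060-15925179, minus strand: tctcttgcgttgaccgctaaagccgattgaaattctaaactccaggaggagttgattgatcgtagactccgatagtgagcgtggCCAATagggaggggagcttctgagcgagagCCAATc
Mthfd1, chr12:76255112-76255231, plus strand: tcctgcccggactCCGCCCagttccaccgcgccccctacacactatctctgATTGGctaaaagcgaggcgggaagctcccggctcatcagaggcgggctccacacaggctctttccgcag

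Aldh1l1 and Psph, which were higher, and Mthfd1, which was lower, share CCAAT and GC box matches. Mthfd1l has no CCAAT match, and is the only run of the 5 with TGACG. Over the 10 RefSeq windows found for 9 of the genes (250 bases before to 50 after the start, Psat1 with 2 windows), 7 held CCAAT, against 37.4% of all 32841 windows. The GC box was in 6, against 35.7% of all windows, and TGACG in 3, against 20.8%. None of the 10 windows held the C/EBP-ATF response element TGATGNAA (3.97% of all windows), the glucocorticoid response element (0.475%) or the E-box CACGTG (7.15%). These matches describe the letters of the windows and are not evidence of binding.

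Counted reads per library ranged from 35208460 to 38293012. Control libraries 2 and 3 stood apart in transcripts of the choroid plexus, the epithelium that secretes cerebrospinal fluid. The summed level of 16 choroid plexus markers was 3875 and 4918 CPM there (counts scaled to a common library size, with edgeR's TMM factors). It was 673 and 298 CPM in control libraries 1 and 4 and between 166 and 236 CPM in the bigenic libraries. Of the 14 markers tested 12 were lower in bigenic tissue and 0 higher, against 22.9% and 21.4% of all genes tested. The defining marker Ttr was at 2360 and 2961 CPM in control libraries 2 and 3, at 300.2 CPM in control library 1, and between 2.25 and 4.62 CPM in the other 5. Results were therefore also computed without control libraries 2 and 3. Control library 1 remains in that fit, so the choroid plexus difference is not removed by it. The log2 fold change of Folr1, one of these markers, was -2.79 in that fit against -5.42 with all 8 libraries. A further fit took the level of Ttr as a covariate. Ttr was high only in control libraries, so this covariate shares part of the difference between the groups, and the 2 cannot be told apart. With the covariate 19.3% of all genes tested passed, against 44.3% without it, so a lost call there is not particular to a gene. Cerebellar markers were present in every library: those of granule neurons summed to between 7097 and 9906 CPM and those of Purkinje cells to between 12977 and 16360 CPM.

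Of the 10 genes, 4 were higher and 2 lower in bigenic cerebellum at an adjusted p under 0.05 (edgeR's quasi-likelihood test, Benjamini-Hochberg over 15186 genes). Mthfd1l, Aldh1l1, Psph and Psat1 rose, whereas Aldh1l2 and Mthfd1 fell. The changes were modest, from a 1.79-fold rise of Mthfd1l to a 1.45-fold fall of Aldh1l2. Phgdh, Shmt1, Shmt2 and Mthfd2 did not pass. Over all genes tested 44.3% passed, 21.4% higher and 22.9% lower, so 6 of 10 is not far above the background. With library size alone as the scaling, 2423 genes were higher and 4373 lower over all genes, in place of 3249 and 3485. All 10 genes passed the filter on low counts. The 4 bigenic and 4 control CPM values did not overlap for 3 genes that were higher (Aldh1l1, Mthfd1l and Psph) and 2 that were lower (Aldh1l2 and Mthfd1), against 40.7% of all genes tested. Without control libraries 2 and 3, 2 of the 10 genes were higher and 0 lower, and 21.9% of all genes passed in that fit.

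**Figure D1:**
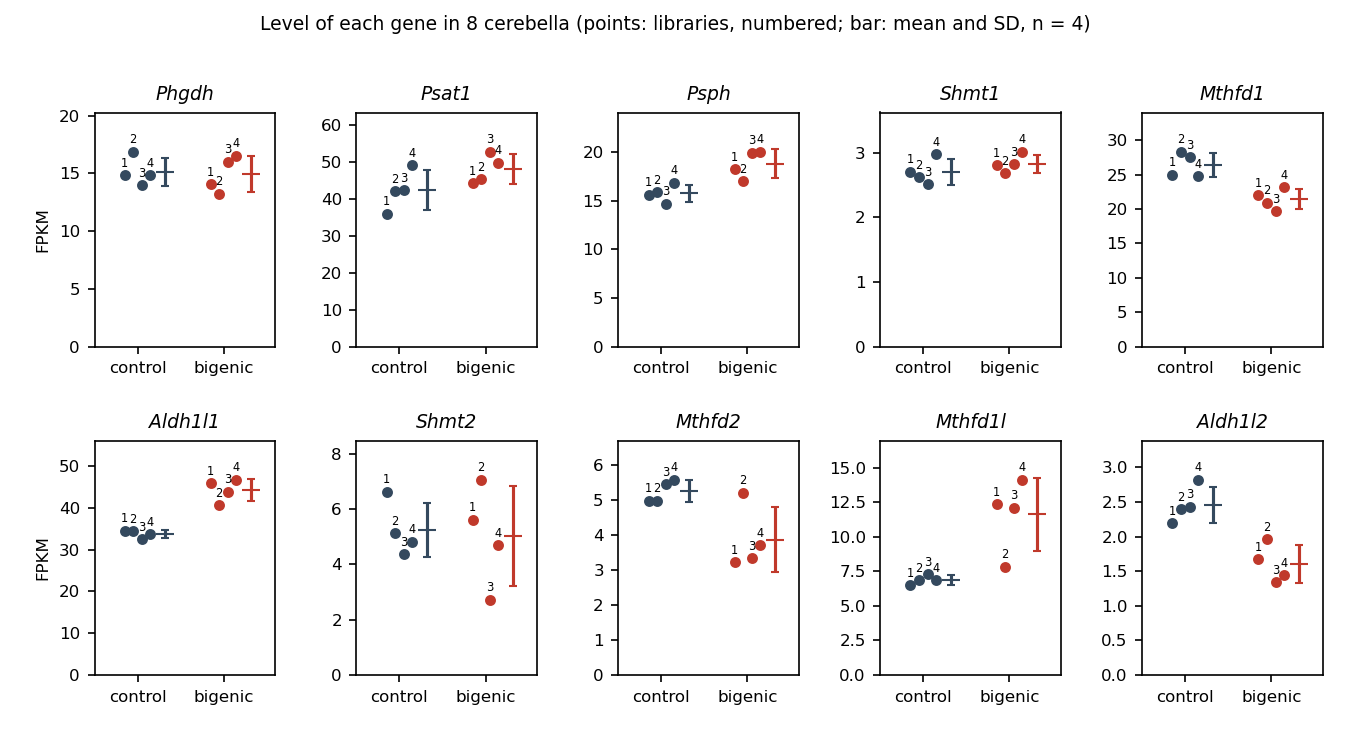
FPKM (fragments per kilobase of gene length, scaled to the library total, vertical axis) of each gene in 4 control (dark) and 4 bigenic (red) cerebella; numbered points are libraries and bars give mean and SD. Aldh1l1 and Mthfd1l lie higher in every bigenic library and Aldh1l2 and Mthfd1 lower, while bigenic library 2 lies nearest to the controls for Mthfd1l at 7.84 FPKM.

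The last steps of serine synthesis rose slightly and the first showed no call. Phgdh, the committing enzyme (chromosome 3, 98313170 to 98339990, minus strand), was at 14.1, 13.2, 16.03 and 16.5 FPKM in bigenic libraries 1 to 4 and at 14.8, 16.9, 14.01 and 14.9 FPKM in control libraries 1 to 4. The groups overlapped throughout. Its log2 fold change of 0.07 ± 0.10 (SE) had a 95% interval from -0.15 to 0.28 (adjusted p = 0.60), and with library size alone it was -0.02.

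Psat1, the phosphoserine aminotransferase (chromosome 19, 15904678 to 15947337, minus strand), was at 44.2, 45.4, 52.9 and 49.9 FPKM in bigenic and at 36.1, 42.2, 42.3 and 49.1 FPKM in control libraries. Control library 4 lay within the bigenic range and the other 3 controls below it. In TMM-scaled CPM the mean rose from 103 ± 12.1 to 124 ± 11.8 (SD, n = 4), which on the log2 scale is 0.27 with an SE of 0.10 (adjusted p = 0.044). This call was lost in 13 of 18 alternative fits, among them library size alone (0.18, adjusted p = 0.15), the fit with the level of Ttr as a covariate (0.14, adjusted p = 0.53) and the fit without control libraries 2 and 3 (0.27, adjusted p = 0.18).

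Psph, the phosphoserine phosphatase that completes the pathway (chromosome 5, 129765558 to 129787449, minus strand), was at 18.2, 16.99, 19.9 and 20.03 FPKM in bigenic and at 15.6, 15.8, 14.7 and 16.8 FPKM in control libraries. The groups did not overlap, although bigenic library 2 and control library 4 were close. Psph rose 1.27-fold, from 23.5 ± 0.991 to 29.8 ± 2.47 CPM (± SD, 4 mice per group; difference on the log2 scale 0.34, SE 0.09; adjusted p = 0.0079). It did not pass with Ttr as a covariate (0.27, adjusted p = 0.20) or without control libraries 2 and 3 (0.31, adjusted p = 0.10). Psph exons overlap Cct6a on the opposite strand, which was at 299 ± 51.7 CPM in bigenic against 246 ± 7.01 CPM in control mice (SD, n = 4; difference 0.28 on the log2 scale, adjusted p = 0.051). Whether the counting used strand is not given in the sources used here, so reads of the 2 genes may be shared.

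The serine hydroxymethyltransferases showed no call in either compartment. Cytosolic Shmt1 (chromosome 11, 60788104 to 60811718, minus strand) was at 2.81, 2.68, 2.82 and 3.02 FPKM in bigenic and at 2.70, 2.62, 2.52 and 2.97 FPKM in control libraries, with overlapping groups. Its log2 fold change was 0.15 ± 0.11 (SE; 95% interval -0.10 to 0.40; adjusted p = 0.30). Its exons overlap Smcr8 on the opposite strand, a gene that was higher in bigenic tissue by 0.27 on the log2 scale (adjusted p = 0.016). Smcr8 was at 102 ± 8.86 CPM in bigenic against 84.7 ± 4.72 CPM in control libraries (SD, n = 4). Shmt1 averaged only 6.02 and 5.42 CPM, and reads of the 2 genes may be shared.

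Mitochondrial Shmt2 (chromosome 10, 127517123 to 127522444, minus strand) was the most variable of the 10 genes among bigenic mice. It was at 5.62, 7.06, 2.72 and 4.69 FPKM in bigenic and at 6.63, 5.12, 4.37 and 4.82 FPKM in control libraries, so that bigenic libraries 2 and 3 held both the highest and the lowest value. The log2 fold change was 0.02 ± 0.23 (SE; adjusted p = 0.94), and its 95% interval from -0.49 to 0.54 leaves changes of that size undetected. It was 0.21 without bigenic library 3 and -0.19 without bigenic library 2.

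The cytosolic folate enzymes moved in opposite directions. Mthfd1, which attaches formate to tetrahydrofolate and interconverts the folate forms (chromosome 12, 76255298 to 76319803, plus strand), was at 22.1, 20.9, 19.7 and 23.2 FPKM in bigenic and at 25.01, 28.3, 27.5 and 24.8 FPKM in control libraries. Control libraries 2 and 3, those with the most choroid plexus transcripts, were the highest of the 8. Mthfd1 fell 1.16-fold, from 85.3 ± 6.65 to 73.5 ± 4.03 CPM (± SD, 4 mice per group; difference on the log2 scale -0.22, SE 0.08; adjusted p = 0.041). Without control libraries 2 and 3 the log2 fold change was -0.12 (adjusted p = 0.43) and with the Ttr covariate -0.07 (adjusted p = 0.67). The call was also lost when control library 2 (adjusted p = 0.13), control library 3 (0.11), or bigenic library 1 (0.071), 2 (0.052) or 3 (0.060) was left out.

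Aldh1l1, the cytosolic dehydrogenase that removes carbon from the folate pool (chromosome 6, 90486427 to 90600203, plus strand), was at 45.8, 40.6, 43.9 and 46.7 FPKM in bigenic and at 34.5, 34.5, 32.4 and 33.7 FPKM in control libraries. The 4 controls lay within a narrow band, and all 4 bigenic libraries lay above it. The log2 fold change was 0.48 ± 0.07 (SE; 95% interval 0.33 to 0.62; adjusted p = 0.00026), a 1.39-fold rise. It passed in all 18 alternative fits, with values from 0.38 to 0.51, the highest without bigenic library 2. The RefSeq start used for the promoter lies inside the gene as annotated in GENCODE.

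The mitochondrial folate enzymes also split. Mthfd2, the dehydrogenase and cyclohydrolase of the mitochondrial route (chromosome 6, 83305691 to 83325908, minus strand), was at 3.22, 5.20, 3.33 and 3.71 FPKM in bigenic and at 4.98, 4.98, 5.45 and 5.58 FPKM in control libraries. Bigenic library 2 lay within the control range and the other 3 below it. The log2 fold change of -0.35 ± 0.15 (SE) did not pass (adjusted p = 0.077), and its 95% interval ran from -0.68 to -0.02. It passed in 7 of 18 alternative fits, among them library size alone (-0.44, adjusted p = 0.035), the fit with the mouse number as a replicate block (-0.38, adjusted p = 0.046) and the fit without bigenic library 2 (-0.53, adjusted p = 0.0022).

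Mthfd1l, the formate-tetrahydrofolate ligase that releases formate in mitochondria (chromosome 10, 3973118 to 4167081, plus strand), had the largest change of the 10. It was at 12.4, 7.84, 12.1 and 14.1 FPKM in bigenic and at 6.48, 6.85, 7.29 and 6.85 FPKM in control libraries. Bigenic library 2 was only just above the controls, and the other 3 were well above. Mthfd1l rose from 28.9 ± 1.65 to 51.8 ± 11.7 CPM (± SD, 4 mice per group; difference on the log2 scale 0.84, SE 0.15; adjusted p = 0.00097). It passed in all 18 alternative fits, at 0.99 when bigenic library 2 was left out and at 0.89 in the fit lacking control libraries 2 and 3.

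Aldh1l2, the mitochondrial counterpart of Aldh1l1 (chromosome 10, 83487450 to 83534140, minus strand), had the lowest mean FPKM of the 10 genes, although its range overlapped that of Shmt1 in controls. It was at 1.68, 1.96, 1.34 and 1.44 FPKM in bigenic and at 2.19, 2.39, 2.43 and 2.82 FPKM in control libraries, and the groups did not overlap. It fell 1.45-fold, from 14.4 ± 1.41 to 9.96 ± 1.68 CPM (± SD, 4 mice per group; difference on the log2 scale -0.53, SE 0.13; adjusted p = 0.0069). The call was lost in 1 of 18 alternative fits, that without control libraries 2 and 3, where the value was -0.55 (adjusted p = 0.056). The opposite-strand gene D10Wsu102e, whose exons overlap it, was at 39.5 ± 3.19 and 37.8 ± 1.71 CPM (SD, n = 4; adjusted p = 0.56).

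**Figure D2:**
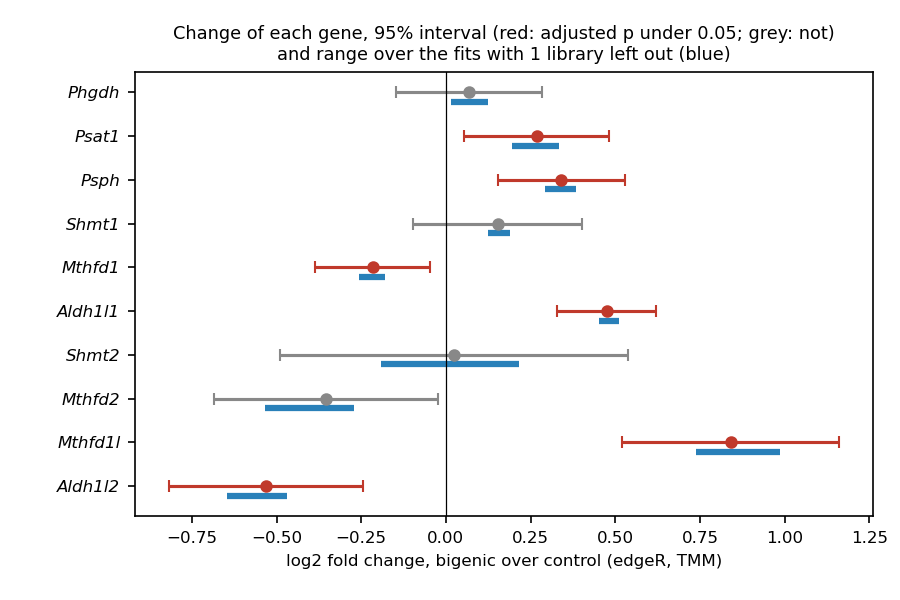
Log2 fold change of each gene, bigenic over control (horizontal axis), with its 95% interval; red passed at an adjusted p under 0.05 and grey did not, and the blue bar spans the 8 fits that leave out 1 library. The point of Mthfd1l lies farthest to the right at 0.84 and that of Aldh1l2 farthest to the left at -0.53, while the blue bar of Shmt2 crosses 0.

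Within each library, enzymes of the 2 compartments were compared as a ratio of counts per kilobase, which does not depend on library scaling. The ratio of Aldh1l1 to Aldh1l2 on the log2 scale was 4.77, 4.37, 5.04 and 5.02 in bigenic and 3.98, 3.85, 3.74 and 3.58 in control libraries. Its mean was 1.02 higher in bigenic tissue, so that the ratio of these messages went from 13.8 to 28.3 on average. The ratio of Mthfd1 to Mthfd1l was 0.83, 1.42, 0.70 and 0.71 in bigenic and 1.95, 2.05, 1.92 and 1.85 in control libraries on the log2 scale, a difference of -1.02. For both pairs the groups did not overlap, and the exact permutation test (two-sided, 70 splits) gave p = 0.0286, the smallest this design allows. Adjusted over the 4 pairs compared, p was 0.057 for each of these 2 in the exact permutation test, so neither passed the threshold. With only these 2 pairs at the smallest p, no lower adjusted value was possible, so this result cannot decide whether the ratios differ.

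The other 2 pairs showed no separation. The Shmt1 to Shmt2 ratio differed by 0.19 on the log2 scale (exact permutation test, two-sided, adjusted p = 0.63), with SDs of 0.62 in bigenic and 0.26 in control libraries, and by -0.07 without bigenic library 3. Mthfd2l, which encodes the related mitochondrial dehydrogenase of adult tissue, was at 9.54 ± 0.812 CPM in bigenic against 10.01 ± 2.45 CPM in control libraries (SD, n = 4). The Mthfd2 to Mthfd2l ratio differed by -0.34 (exact permutation test, two-sided, adjusted p = 0.34).

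**Figure D3:**
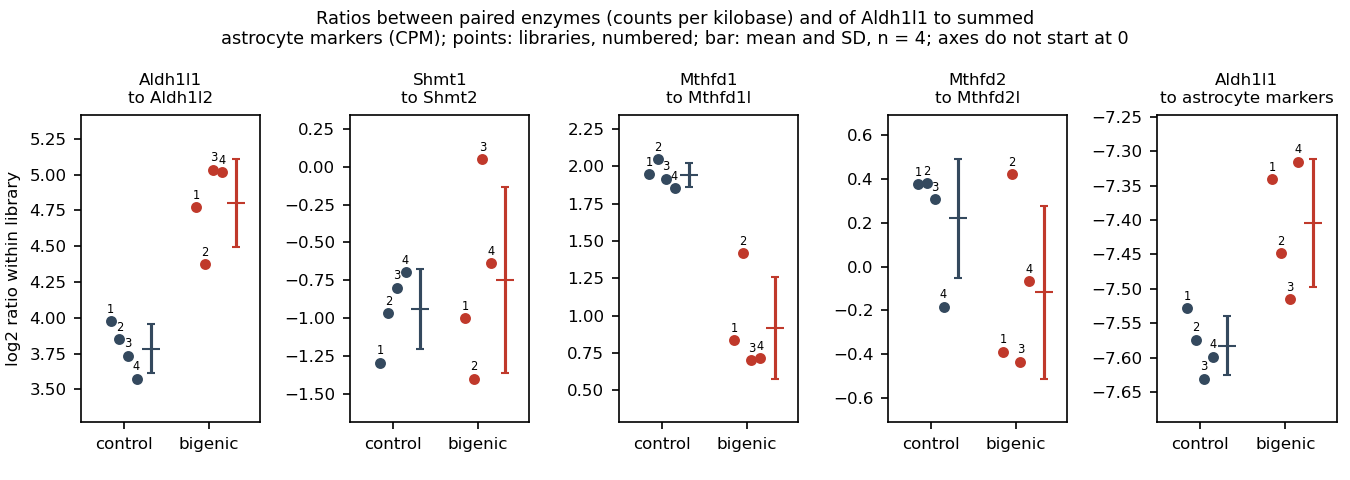
Log2 ratio within each library (vertical axes, which do not start at 0) for the 4 enzyme pairs and for Aldh1l1 to the summed astrocyte markers; numbered points are libraries and bars give mean and SD. The groups are apart for Aldh1l1 to Aldh1l2, Mthfd1 to Mthfd1l and Aldh1l1 to astrocyte markers, and overlap for the other two.

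Per unit of length, Psat1, Aldh1l1 and Mthfd1 had the highest mean FPKM of the 10 in both groups, in that order. In controls Psat1 averaged 42.4 FPKM, Aldh1l1 33.8 and Mthfd1 26.4, and the library ranges of these 3 did not overlap. Psph and Phgdh followed at 15.7 and 15.1 FPKM with overlapping ranges, then Mthfd1l at 6.87. Mthfd2 and Shmt2, at 5.25 and 5.24 FPKM, were not distinguishable, nor were Shmt1 at 2.70 and Aldh1l2 at 2.46. In bigenic tissue the ranges of Psat1 (mean 48.1 FPKM) and Aldh1l1 (44.3 FPKM) overlapped, as did those of Mthfd1 (21.5) and Psph (18.8), of Phgdh (14.96) and Mthfd1l (11.6), and of Shmt2 (5.02) and Mthfd2 (3.87).

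Bigenic library 2 lay nearest to the control mean, in log2 CPM, for 6 of the 10 genes: Aldh1l1, Aldh1l2, Mthfd1l, Mthfd2, Shmt1 and Psph. Of the 6 genes called changed it was nearest for 4, and the same held for 46.6% of all genes called changed, whereas bigenic libraries 1, 3 and 4 were nearest for 22.01%, 15.9% and 15.5%.

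Aldh1l1 was then set against other astrocyte genes. Of 26 astrocyte markers 13 rose and 3 fell, with a median log2 fold change of 0.26, against -0.0041 over all genes tested. Among all genes tested 21.4% were higher and 22.9% lower. Aldh1l1, at 0.48, was exceeded by 7 of them. The summed level of the markers was 23331, 22582, 26061 and 23362 CPM in bigenic against 19089, 19712, 19562 and 19185 CPM in control libraries, so the groups did not overlap. The log2 ratio of Aldh1l1 to that sum was 0.18 higher in bigenic libraries, at -7.40 ± 0.0930 against -7.58 ± 0.0429 (SD, n = 4; exact permutation test, two-sided, p = 0.0286). When any 1 control library was left out the test gave p = 0.057 (exact permutation). Markers of other cell types moved as well. Microglia markers (0 of 12 tested higher, 5 lower) summed to between 176 and 210 CPM in bigenic and between 225 and 272 CPM in control libraries. Endothelium markers (1 of 11 higher, 4 lower) summed to between 295 and 309 CPM and between 336 and 370 CPM, so that neither sum overlapped between groups. Of 10 meningeal fibroblast markers 0 were higher and 5 lower, with overlapping sums of 1602 to 1774 CPM in bigenic and 1288 to 1766 CPM in control libraries, and of 12 oligodendrocyte markers 4 were higher and 4 lower. Their part in the results was not tested. In bulk tissue more cells of a type and more RNA per cell cannot be told apart.

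Of the 5 genes tested within 150 kb of Aldh1l1 on chromosome 6, 3 were higher, against 21.4% of all genes tested. Distances are from Aldh1l1 as annotated in GENCODE, and the RefSeq start used for the promoter lies farther from Klf15. Klf15, a Krüppel-like transcription factor gene whose end lies 11.2 kb before Aldh1l1, was at 66.5, 71.4, 86 and 75.8 CPM in bigenic against at 24.9, 23.3, 16.5 and 20.1 CPM in control libraries (log2 fold change 1.82 ± 0.13, SE; adjusted p = 3.8e-06). Slc41a3, a magnesium transporter gene that begins 4.52 kb after Aldh1l1, was at 103, 95.5, 97.8 and 116 CPM against 52.4, 46.0, 43.8 and 40 CPM (log2 fold change 1.18 ± 0.10, SE; adjusted p = 1.1e-05). The log2 fold changes of both direct neighbours were larger than that of Aldh1l1, a difference that was not tested, and their groups did not overlap. Iqsec1, an Arf exchange factor gene, has its end 55.9 kb after Aldh1l1 and its start 502 kb from that of Aldh1l1. Iqsec1 rose by 0.59 ± 0.17 (SE; adjusted p = 0.014), a call lost without control libraries 2 and 3 (0.49, adjusted p = 0.12) and with the Ttr covariate (0.56, adjusted p = 0.17).

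On the other side of Klf15, Cfap100 (named Ccdc37 in the table) was at 1.99 ± 0.580 and 2.09 ± 0.459 CPM and Zxdc at 33.4 ± 3.57 and 32.8 ± 3.12 CPM in bigenic against control tissue (SD, n = 4; adjusted p = 0.83 for each). Uroc1, the sixth gene within 150 kb with a row in the table, did not pass the filter on low counts. The labels do not say how much of the Aldh1l1 locus the Cre allele carries. Reads of the mouse genes and of any inserted copy of them cannot be told apart. Exons of Aldh1l1 are also overlapped by Gm45901 (same strand) and by Gm15756 (opposite strand), neither of which has a row.

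**Figure D4:**
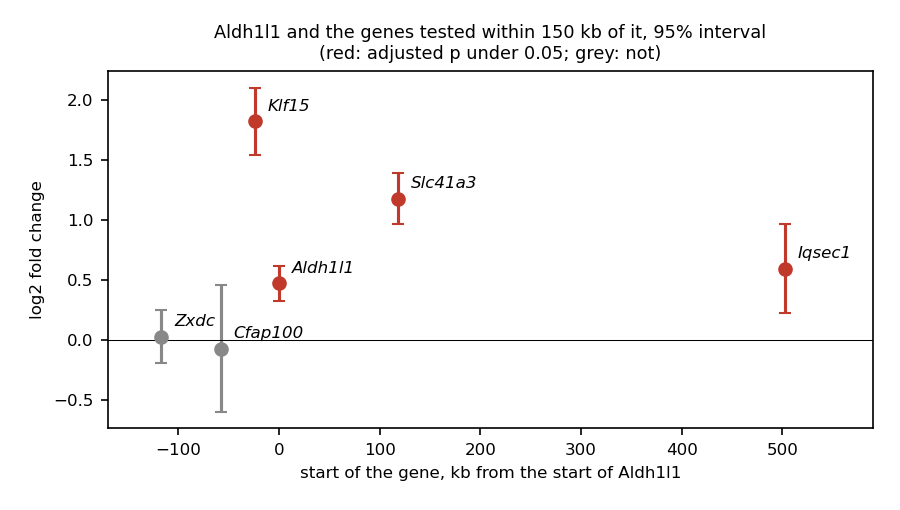
Log2 fold change, bigenic over control (vertical axis, with 95% interval), of Aldh1l1 and the 5 genes tested within 150 kb of it, by the distance of their start from that of Aldh1l1 (horizontal axis, kb). Klf15 and Slc41a3, on either side of Aldh1l1, lie highest at 1.82 and 1.18, and Zxdc and Cfap100 lie near 0.

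The genes whose level followed Aldh1l1 most closely over the 8 libraries were found by the root mean square difference of log2 CPM, each gene centred on its own mean. They were the transferrin receptor gene Tfrc (0.031), the ubiquitin ligase gene Rnf167 (0.035), the lysosomal tethering gene Vps11 (0.042), the translation initiation factor gene Eif3f (0.043) and Trafd1 (0.043), against a median of 0.33 over all other genes tested. Of the 9 other serine and folate genes Psph was nearest, at 0.094, and Aldh1l2 farthest, at 0.55. Tfrc went from 263 ± 2.05 to 363 ± 22.8 CPM (SD, n = 4).

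Of 13 other folate enzymes tested 1 rose and 5 fell, with a median log2 fold change of -0.07. Over all genes tested 44.3% passed, 21.4% higher and 22.9% lower, so the share called here is near the background. Mtrr, which keeps methionine synthase active, fell from 25.6 ± 1.05 to 15.1 ± 1.04 CPM (± SD, 4 mice per group; difference on the log2 scale -0.76, SE 0.09; adjusted p = 7.9e-05). Thymidylate synthase, Tyms, was low at 1.25 ± 0.114 CPM in bigenic against 2.05 ± 0.287 CPM in control tissue (-0.72, adjusted p = 0.0090), and Fpgs, which adds the glutamate tail that keeps folate in the cell, rose by 0.49 (adjusted p = 0.020). These counts were 0 and 1 without control libraries 2 and 3, a fit in which 21.9% of all genes passed.

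Of 9 folate and mitochondrial serine carriers 2 rose and 3 fell, against 21.4% higher and 22.9% lower over all genes tested. Folr1, the folate receptor of choroid plexus epithelium, was at 0.171, 0.108, 0.539 and 0.195 CPM in bigenic against at 3.04, 16.6, 23.3 and 0.473 CPM in control libraries. It is itself one of the choroid plexus markers, and its high values were in the same control libraries as those of Ttr. The proton-coupled folate transporter Slc46a1 fell by 0.68 ± 0.12 (SE; adjusted p = 0.0013). The sideroflexins Sfxn2 and Sfxn3, mitochondrial carriers, rose by 0.59 and 0.45, whereas the main serine carrier Sfxn1 did not pass (52.7 ± 6.17 against 48.1 ± 1.66 CPM, SD, n = 4; adjusted p = 0.26). When control libraries 2 and 3 were left out, 1 carrier was higher and 2 lower, against 21.9% of all genes passing.

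Glycine and serine use held calls in both directions, as did all genes tested, of which 21.4% were higher and 22.9% lower. Of 10 genes of glycine metabolism tested 1 rose and 2 fell, a smaller share than the 44.3% called over all genes tested. Gnmt, which uses glycine to consume S-adenosylmethionine, rose from 5.80 ± 0.475 to 13.1 ± 1.34 CPM (± SD, 4 mice per group; difference on the log2 scale 1.18, SE 0.12; adjusted p = 3.4e-05). The glycine cleavage genes Gldc and Amt fell by 0.69 and 0.45. These counts were also 1 and 2 without control libraries 2 and 3, where 21.9% of all genes passed.

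Of 17 genes of serine use and transport tested 5 rose and 4 fell, against 21.4% higher and 22.9% lower over all genes tested. Serine racemase, Srr, which makes D-serine, fell from 41.2 ± 2.53 to 25.2 ± 2.12 CPM (± SD, 4 mice per group; difference on the log2 scale -0.71, SE 0.09; adjusted p = 0.00012), and its exons overlap Smg6 and Tsr1 on the opposite strand. Sptlc2, a subunit of the enzyme that joins serine to palmitate for sphingolipids, fell by 1.06 ± 0.13 (SE; adjusted p = 9.2e-05). Cbs, which condenses serine with homocysteine, rose by 0.53 and the amino acid transporter Slc38a2 by 0.53. In the fit without control libraries 2 and 3, 4 genes were higher and 2 lower, against 21.9% of all genes passing.

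In the methionine cycle 2 of 10 genes tested rose and 2 fell, against 21.4% higher and 22.9% lower over all genes tested. Mat2b, the regulatory subunit of methionine adenosyltransferase, rose by 0.41 and Ahcy, S-adenosylhomocysteine hydrolase, by 0.39, whereas spermine synthase, Sms, fell by 0.57. Leaving out control libraries 2 and 3 gave 0 higher and 2 lower, where 21.9% of all genes passed. In purine synthesis, which uses formyl folate, 1 of 13 rose and 5 fell, where 44.3% of all genes tested passed in either direction. Adsl fell by 0.66 and Atic, which performs the second formyl transfer, by 0.52, and Prps1 rose by 0.36. Leaving out control libraries 2 and 3 gave 0 higher and 3 lower, again against 21.9% of all genes.

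Several of the 10 genes, among them Phgdh, Psat1, Shmt2, Mthfd2 and Aldh1l2, are known targets of the stress-induced transcription factor ATF4. Of 34 genes of ATF4 and the amino acid response, 8 rose and 6 fell, with a median of 0.10. Over all genes tested 21.4% were higher and 22.9% lower, so these calls are near the background share. Ppp1r15a, which reverses the translational block, rose by 0.64 ± 0.10 (SE; adjusted p = 0.00040) and the amino acid transporter subunit Slc3a2 by 0.41 ± 0.07 (SE; adjusted p = 0.00079). The cystine transporter Slc7a11 fell by 0.99 ± 0.12 (SE; adjusted p = 9.2e-05) and Aldh18a1, of proline synthesis, by 0.55. Atf4 itself was at 184 ± 23.7 and 162 ± 1.62 CPM (SD, n = 4; adjusted p = 0.10), and the classical target Asns at 96.6 ± 4.63 and 108 ± 4.32 CPM (adjusted p = 0.078); both genes are named here with their values already known. Scaling by library size alone gave 6 higher and 10 lower, where 44.8% of all genes passed. The fit without control libraries 2 and 3 gave 5 and 3, where 21.9% of all genes passed.

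**Figure D5:**
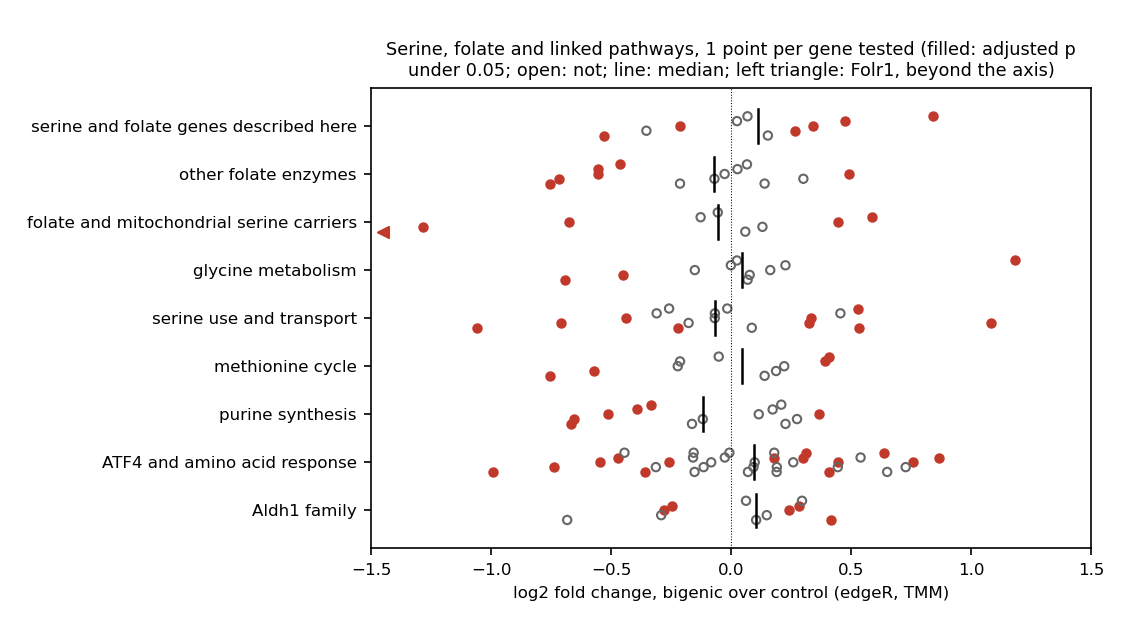
Log2 fold change, bigenic over control (horizontal axis), of each gene tested in the serine and folate set and in 8 linked lists; filled points passed at an adjusted p under 0.05, open points did not, and the line marks the list's median. Every list holds filled points on both sides of 0, and the medians lie between -0.12 and 0.11.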

How the data were processed

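RNA of cerebellum from 4 bigenic and 4 control mice was analysed from the deposited tables. Per the submitters' processing notes, STAR, HTSeq and the mm10 build were used; versions, strand setting and treatment of multiply mapped reads are not given in the sources used here. Per the labels, the series design and the sample protocols name different extraction and library kits. The authors deposited whole-number read counts per gene symbol, not normalised, and FPKM values, which equal the counts over 1 length for each gene and over the library total. FPKM is used for levels between genes, and carries no TMM scaling.

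The counts were fitted with edgeR 4.0.16 under R 4.3.3: filterByExpr on group left 15186 genes, TMM scaled the libraries, and a robust quasi-likelihood F test compared the groups, with Benjamini-Hochberg adjustment over all genes tested. Every adjusted p of a single gene is from this test unless another is named. SE and 95% intervals are those of the fit. The fit was tested on simulated data, in which far fewer genes were changed than were called here. It recovered 65% of 1.5-fold and 79.8% of 2-fold changes, and 6.49% of its calls fell on unchanged genes. Changes under 1.5-fold were not simulated. Gene positions are from GENCODE M21 (GRCm38, the build called mm10), counted from 1. Alternatives used DESeq2 1.42.0 and limma 3.58.1 on log2(FPKM + 1). The members and lists were chosen with earlier results of these data known. Named genes were the 10 members, up to 2 higher and 2 lower genes with the smallest p per list, the genes tested within 150 kb of Aldh1l1, and the 5 nearest to it in level; Mthfd2l entered as a partner in a ratio, and Sfxn1, Atf4 and Asns were chosen after their values were seen. Library totals of 35208460 to 38293012 counted reads leave genes near 1 CPM, such as Tyms, with the largest counting error.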

Additional observations from a re-analysis of the deposited data

Results flagged for a closer look

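In 106 groups of 4 libraries examined for a value far from the other 3, 6 were found; chance gives about 1 in 20. The Mthfd2 to Mthfd2l log2 ratio of control library 4 was -0.18, with the nearest control at 0.31. Sfxn3 was at 35.8 CPM in bigenic library 2, with the nearest bigenic library at 28.9. Amt was at 39.9 CPM in control library 1 (nearest 38.1), Atic at 32.3 CPM in control library 4 (nearest 30.3), Zxdc at 37.4 CPM in control library 1 (nearest 31.8) and Vps11 at 97.3 CPM in control library 4 (nearest 106). No library held more than 3 of these 6.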

How the results depend on the processing

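The rise of Aldh1l1 and of Mthfd1l kept its direction and call in all 18 alternative fits. With the Ttr covariate 2 of the 10 genes were higher and 1 lower, where 19.3% of all genes passed. Without control libraries 2 and 3, a fit with fewer samples, 2 were higher and 0 lower, where 21.9% of all genes passed. With 1 library left out 3 to 4 were higher and 1 to 2 lower, where 34.5% to 48.3% of all genes passed. Leaving out 1 library moved the log2 ratio difference to between 0.94 and 1.16 for Aldh1l1 to Aldh1l2, -1.19 and -0.95 for Mthfd1 to Mthfd1l, -0.073 and 0.41 for Shmt1 to Shmt2, -0.52 and -0.23 for Mthfd2 to Mthfd2l, and 0.15 and 0.21 for Aldh1l1 to astrocyte markers. Without control libraries 2 and 3 the ratios have no test that could pass, and their differences moved by less than 1 SD; ratios of FPKM equal those of counts per kilobase by construction.

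Among the genes without a call, Shmt1 and Mthfd2 kept their sign in all 18 alternative fits, while Shmt2, Phgdh, Zxdc and Cfap100 changed sign in some. Shmt2 was at -0.058 with library size alone, -0.032 with upper-quartile factors, -0.12 on log2(FPKM + 0.1), -0.092 on log2(FPKM + 1) with and without the filter, -0.097 without control libraries 2 and 3, -0.028 with the replicate block, and between -0.19 and 0.21 with 1 library left out. Phgdh was at -0.018 when scaled by library size alone, -0.020 on log2(FPKM + 0.1) and -0.019 on log2(FPKM + 1) with and without the filter. Zxdc was at -0.055 with library size alone, -0.029 with upper-quartile factors, -0.056 on log2(FPKM + 0.1), -0.047 on log2(FPKM + 1) with and without the filter, -0.031 without control libraries 2 and 3, and between -0.025 and 0.098 with 1 library left out. Cfap100 (Ccdc37) was between -0.24 and 0.079 with 1 library left out. The cause was not tested.

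The labels number the mice 1 to 4 in each group without saying that a number is shared. Deviations of same-numbered libraries correlated at 0.33, 0.024, 0.17 and 0.063, all positive. Bigenic library 2 correlated best with control library 1 (0.088) and control library 4 with bigenic library 3 (0.10). The remaining libraries correlated best with their own number. These values cannot decide whether the numbers mark pairs, and for want of a label they were not taken as pairs. With the replicate block 4 of the 10 genes were higher and 3 lower. Over all genes the block gave 3648 higher and 3795 lower, in place of 3249 and 3485. Depth limits genes near 1 CPM, such as Tyms, and Folr1 in the bigenic libraries.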

Other observations

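The wider aldehyde dehydrogenase family, to which the carboxy-terminal part of Aldh1l1 belongs, was called at about the background share. Of 11 members tested other than Aldh1l1 and Aldh1l2, 3 were higher and 2 lower, where 44.3% of all genes tested passed. Their log2 fold changes ran from -0.68 to 0.42, with a median of 0.10. Aldh6a1, of valine breakdown, rose from 123 ± 6.93 to 164 ± 19.8 CPM (± SD, 4 mice per group; difference on the log2 scale 0.42, SE 0.09; adjusted p = 0.0035), and Aldh1a1, which makes retinoic acid, from 336 ± 15.2 to 408 ± 46.9 CPM (0.28, adjusted p = 0.021). Aldh4a1, of proline breakdown, fell by 0.28 (adjusted p = 0.015) and Aldh7a1, of lysine breakdown, by 0.25 (adjusted p = 0.017). Without control libraries 2 and 3, 1 member was higher and 0 lower, where 21.9% of all genes passed. With library size alone the counts were 1 and 3, where 44.8% of all genes passed.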
